A study of Mus musculus with 2 samples.

Results

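The genes described here encode the proteins of nuclear speckles and the splicing machinery stored in them: SR proteins, speckle scaffolds, proteins of the exon junction and the snRNPs, and the kinases that phosphorylate SR proteins. They were chosen as a list of 41 gene symbols. Of these, 39 were matched by symbol to probe sets with a single gene symbol, out of 18194 genes so represented, and all 39 were measured on both arrays. Srsf7 had no such probe set and Rbm10 only probe sets shared with another symbol. Both were left out of all signal values and entered the promoter windows alone. The 39 genes had 159 probe sets, of which 134 were measured on both arrays.

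Total RNA came from mouse embryonic fibroblasts (MEFs), connective tissue cells grown out of dissociated embryos. The wildtype group and the Malat1 knock-out group were each C57BL/6, were taken at embryonic day 13.5, were kept for 2 weeks in culture and were left untreated. A single Affymetrix Mouse430_2 array was hybridized per group. The labels do not give the knockout allele, the sex or the number of embryos behind each culture. With a single array per genotype, no difference below could be tested or set against the spread between cultures, and the precision is limited by the number of arrays. In RNA from a whole culture, fewer cells of a type and less RNA per cell cannot be told apart.

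Nuclear speckles are bodies between the chromosomes that hold splicing factors near sites of transcription. SR proteins bind exons through RNA recognition motifs and recruit the spliceosome through tails rich in arginine and serine. Phosphorylation of these tails by the CLK kinases releases the proteins from speckles. Malat1, a long noncoding RNA retained in the nucleus, accumulates in speckles and binds SR proteins, and many SR genes limit their own mRNA through exons that send the transcript to nonsense-mediated decay.

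Malat1 itself followed the labels. Its brightest probe set read 9.80 (log2 signal) on the wildtype array and 4.53 on the knockout array. The second value lay below the floor, the median signal of each array (5.39 and 5.44, in the same order). The signal was at least 20.6-fold lower, the ratio of the wildtype signal to the knockout floor. The arrays also differed in sex-linked RNA. Xist, which coats the inactive X chromosome, was above the floor on the knockout array alone (4.50 and 11.49), and the Y-linked gene Eif2s3y on the wildtype array alone (8.57 and 2.81), so genotype and sex-linked expression cannot be told apart. The spike-in controls added at hybridization were lower in the knockout at all 18 of their probe sets, by -0.38 to -0.10 with a median of -0.23. The fibroblast markers were all measured on both arrays, with Col1a2 at 14.58 and 14.43, and the Actb signal at the 3′ end exceeded that at the 5′ end by 0.139 and 0.110, while that difference was -0.165 and -0.180 for Gapdh.

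The promoters of these genes are shown first, as features that the choice of the list did not use. RefSeq (mouse GRCm38.p6) gave 49 windows for 37 of the 41 genes, each read here for the 250 bases before a transcription start. Srsf7 and Rbm10, which have no signal value here, were among the 37. These windows held a median of 20 CpG dinucleotides and 61.6% G or C, against 16 and 60% over the 11761 windows of genes measured on both arrays. The sequences below belong to the 3 genes with the lowest differences and the gene with the highest difference among those with a single listed start. Each is given 5′ to 3′ on the strand of its gene, and capitals mark matches to the 6 motifs named in the next paragraph. The windows are chr4:135855821-135856070 (plus strand), chr3:89164545-89164794 (plus), chr11:94321964-94322213 (minus) and chr9:57765115-57765364 (minus).
Srsf10: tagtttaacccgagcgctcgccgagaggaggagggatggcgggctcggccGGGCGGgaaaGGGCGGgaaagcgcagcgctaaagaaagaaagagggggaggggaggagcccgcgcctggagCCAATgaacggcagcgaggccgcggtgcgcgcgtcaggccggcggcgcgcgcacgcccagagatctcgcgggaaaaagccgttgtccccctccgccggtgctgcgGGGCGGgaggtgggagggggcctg
Clk2: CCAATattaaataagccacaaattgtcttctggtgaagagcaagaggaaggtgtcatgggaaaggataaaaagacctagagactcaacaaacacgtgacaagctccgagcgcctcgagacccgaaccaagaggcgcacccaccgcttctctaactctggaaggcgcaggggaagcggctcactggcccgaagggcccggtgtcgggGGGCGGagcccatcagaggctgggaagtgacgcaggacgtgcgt
Luc7l3: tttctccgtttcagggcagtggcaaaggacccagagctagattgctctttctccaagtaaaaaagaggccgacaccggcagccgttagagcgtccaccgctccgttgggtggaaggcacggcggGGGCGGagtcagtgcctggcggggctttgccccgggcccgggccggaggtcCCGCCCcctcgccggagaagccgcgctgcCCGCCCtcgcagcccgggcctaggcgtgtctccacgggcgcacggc
Clk3: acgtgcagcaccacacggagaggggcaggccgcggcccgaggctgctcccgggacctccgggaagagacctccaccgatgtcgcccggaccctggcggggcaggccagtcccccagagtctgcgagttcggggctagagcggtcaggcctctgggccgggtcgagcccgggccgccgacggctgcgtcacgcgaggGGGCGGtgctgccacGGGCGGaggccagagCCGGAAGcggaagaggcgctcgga

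Of the 6 motifs searched on both strands, the core bound by ETS factors (CCGGAAG) was in 14 of the 49 windows (28.6%), from 10 genes, against 13.3% of windows of measured genes and 6.91% of all 32851 windows. Clk3 was one of these genes, and Srsf10, Clk2 and Luc7l3 were not. The SP1 letters (GGGCGG) were in 59.2% of the windows, close to the 57.9% of measured genes, and all 4 printed sequences hold them. The NFY letters (CCAAT) were in 34.7%, against 34.9%, and appear above in Srsf10 and Clk2. The TATA box (TATAAA) was in 6.12% against 6.51%, the core bound by NRF1 (GCATGCG) in 8.16% against 5.29%, and that of YY1 (AAGATGG) in 2.04% against 4.16%. No searched motif lies within another. Windows of 1 gene overlap, so they are not independent, and a match is a description of the letters alone.

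As a group the speckle and splicing genes had slightly lower signals on the knockout array. Each gene was represented by its brightest probe set, taken by the mean of the arrays. By this measure 36 of the 39 genes (92.3%) were lower, against 59.8% of the 11295 genes measured on both arrays, and the median difference, knockout minus wildtype, was -0.16 log2 units against -0.05. Among the 6276 genes at least as bright as the dimmest member, 63.7% were lower and the median was -0.06. The differences were small and close together. They ran from -0.38 to 0.07 with an SD of 0.11 across genes, against 0.24 over all measured genes.

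No member reached 1.5-fold in either direction, a size that 1.61% of measured genes reached below and 0.832% above. Only 4 members were at least 1.2-fold lower (10.3%, against 14.9% of measured genes) and none was 1.2-fold higher (8.51% of measured genes). Differences of probe sets that target the same gene had a pooled SD of 0.199 over all genes, which served as a measure of spread within the arrays. By that size 16 of 39 members were lower, 41.0% against 23.0% of measured genes, and 0 were higher, against 12.1%. The direction was thus shared by most of the list. At the brightest probe sets differences past 1.2-fold were no more frequent than among the measured genes, whereas over all probe sets of the list, given further on, they were.

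**Figure D1:**
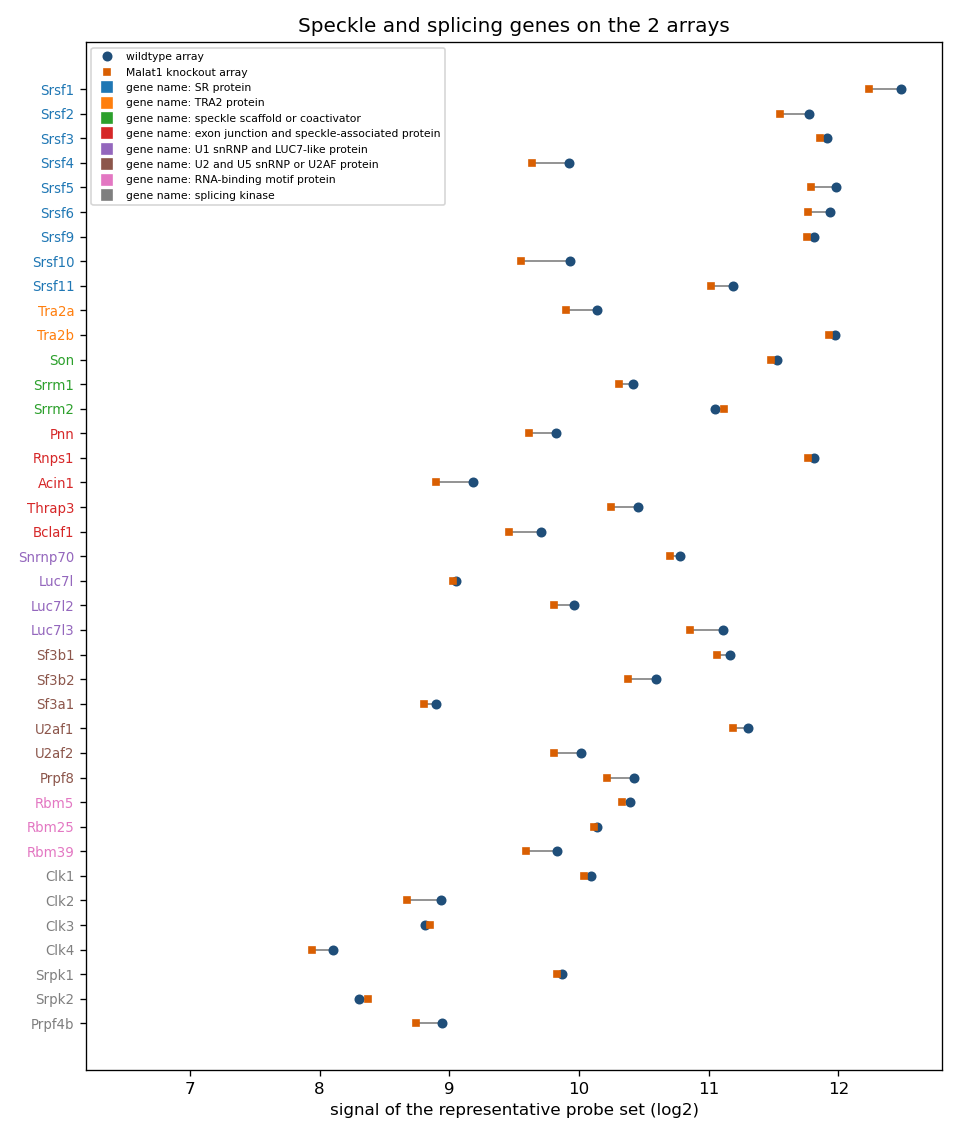
Log2 signal of the representative probe set of 39 speckle and splicing genes on the wildtype array (circles) and the Malat1 knockout array (squares), 1 array each, with gene names coloured by subclass. The square lies left of the circle for 36 genes, and no pair is as much as 1.5-fold apart. Levels of different genes come from different probes and are not comparable.

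The count of members lower changed with the scaling of the arrays, and so did the share of all measured genes that were lower. With the median difference of measured probe sets (-0.06) set to 0, 26 of the 39 genes were lower, against 47.6% of measured genes, and the list's median was -0.10. After quantile normalization 30 were lower (against 44.8%) with a median of -0.09, and after loess centring 31 (against 47.3%) with a median of -0.09. Under these scalings 1 member, Srsf10, stayed at least 1.2-fold lower, a size whose share of all measured genes is not given for them. The members past the pooled SD numbered 4 with the median difference set to 0, 5 after quantile normalization and 5 after loess centring, near the 15.2%, 12.9% and 14.1% of measured genes. The spike-in controls moved with the list (median -0.23, against -0.16 for the members), while 18S ribosomal RNA was higher in the knockout at all 3 of its probe sets, by 0.47 to 0.67 with a median of 0.58. The part of either in the result was not tested.

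**Figure D2:**
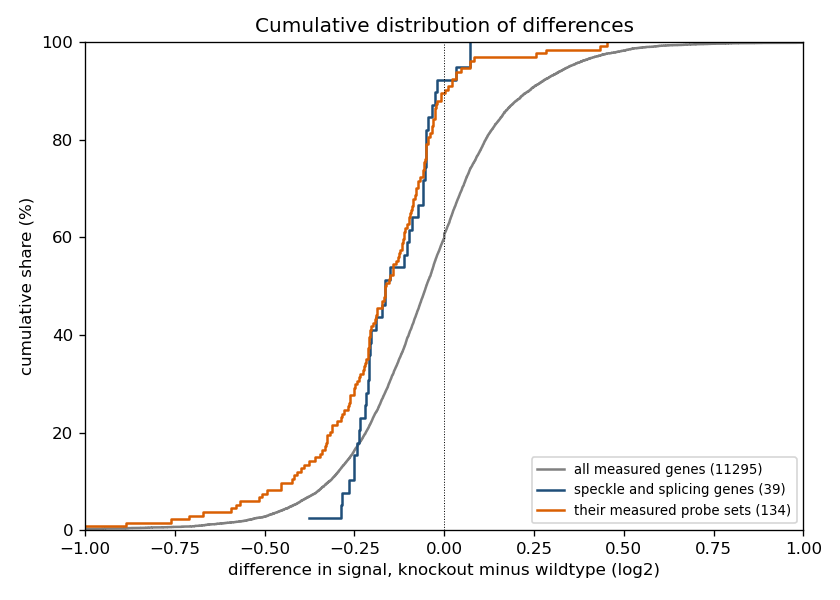
Cumulative share (%) of log2 differences, knockout minus wildtype, for 11295 measured genes (grey), 39 speckle and splicing genes (blue) and their 134 measured probe sets (orange), with the axis limited to differences between -1 and 1. The blue curve lies left of the grey one at 0, with 92.3% against 59.8% of genes below it, and is steeper than the grey curve.

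The SR proteins, the classical exon-binding regulators, were lower in all 9 measured members, with a median of -0.19, and with the median difference set to 0 Srsf3 and Srsf9 turned to 0.00 and 0.01. Srsf10, which can act as a splicing repressor once dephosphorylated, had the lowest value of the whole list, with signals of 9.93 (wildtype) and 9.56 (knockout), a difference of -0.38 (1.30-fold). Its other 3 probe sets differed by -0.41, -0.21 and -0.12, so that all 4 had the same sign. Srsf4, one of the larger SR proteins, read 9.92 and 9.64 (-0.29, 1.22-fold) at its single probe set. Srsf1, the founding member of the family, read 12.49 and 12.24 (-0.25). Its 6 measured probe sets all had lower signals on the knockout array, from -0.40 to -0.07.

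Srsf2, a speckle marker also known as SC35, disagreed between probe sets. Its 3 brighter ones differed by -0.22, -0.19 and -0.06, and all 3 are of a type, ending in _s_at, that can pick up related transcripts. The fourth, at 7.66 and 8.09, was 0.43 higher on the knockout array. Without such probe sets Srsf2 would be represented by that value and would be higher on the knockout array.

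Srsf5 and Srsf6, SR proteins that activate exons through enhancer sequences, were close to the family median. Srsf5 read 11.98 and 11.79 (-0.19), and Srsf6 read 11.94 and 11.77 (-0.17) with 4 probe sets between -0.19 and -0.12. Srsf11, an SR-related protein that contacts the U2AF complex, read 11.19 and 11.02 (-0.17), and a dimmer probe set read 6.82 and 6.31 (-0.52). Srsf3, the smallest of the family, read 11.92 and 11.86 (-0.06), and its 6 probe sets spanned -0.34 to 0.02. Srsf9 read 11.82 and 11.76 (-0.05). Differences of this size are below the 0.199 spread between probe sets, and the sign of both turned with the median difference set to 0.

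The TRA2 proteins, SR-like activators that bind purine-rich exon enhancers, differed from each other. Tra2a read 10.14 and 9.90 (-0.24), and its other measured probe sets differed by -0.76 (7.86 and 7.10) and -0.03. The first of these is one of 6 member probe sets at least 1.5-fold lower. Tra2b read 11.98 and 11.93 (-0.05) and 11.08 and 11.00 (-0.08) at its measured probe sets. The Tra2b difference turned to 0.01 with the median difference set to 0, and its other 3 probe sets lay below the floor.

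The speckle scaffolds had a median of -0.05, which turned to 0.01 with the median difference set to 0. Son, a large RNA-binding protein that holds speckles together, read 11.53 and 11.48 (-0.05) at its brightest probe set, and it is this value that turned. Its other 6 were lower too, by up to -0.42 (9.65 and 9.23), and their median with the first was -0.20. Srrm1, a splicing coactivator, read 10.42 and 10.31 (-0.10).

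Srrm2, the other scaffold on which speckles form, had, together with Srpk2, the highest of the 39 differences at its brightest probe set, with 11.05 and 11.12 (0.07). A dimmer Srrm2 probe set read 9.02 and 8.42 (-0.59, 1.51-fold lower). The third, at 5.69 and 5.10, was below the floor on the knockout array and at least 1.196-fold lower. The probe sets of Srrm2 thus pointed in opposite directions, and neither has a replicate.

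Proteins that join the exon junction complex or associate with speckles had a median of -0.21 over 5 genes, and of -0.16 to -0.15 under the other scalings. Acin1, a scaffold of the complex that also holds Rnps1, read 9.18 and 8.90 (-0.28, 1.22-fold), and its second probe set read 8.75 and 8.04 (-0.71, 1.64-fold). Bclaf1 read 9.70 and 9.46 (-0.24) and Thrap3, its close relative, 10.46 and 10.25 (-0.21). Both are RS-rich proteins found in speckles. Further probe sets ran from -0.31 to -0.08 for Bclaf1, while those of Thrap3 differed by -0.51 and 0.02. Pnn, the speckle protein pinin, read 9.82 and 9.61 (-0.21) and had 3 probe sets between -0.32 and -0.21. Rnps1, an activator of splicing, was nearly level at 11.81 and 11.77 (-0.04), a sign that turned with the median difference set to 0.

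**Figure D3:**
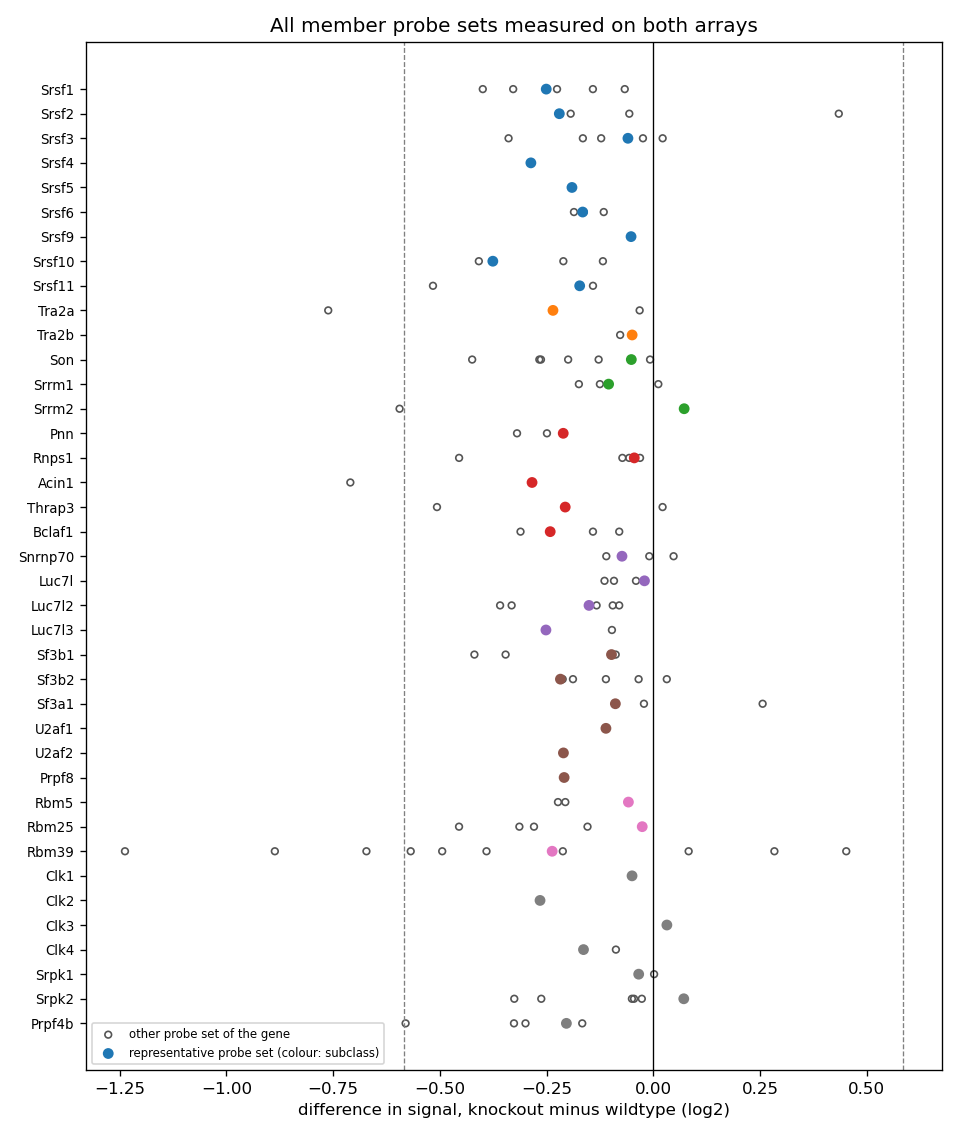
Log2 differences, knockout minus wildtype, of the 134 probe sets of 39 genes measured on both arrays, with the representative probe set of each gene filled and the others open. Dashed lines mark 1.5-fold. In all 120 of 134 lie below 0, 6 lie below the lower dashed line and none lies above the upper one.

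Proteins of the U1 snRNP, which recognizes the 5′ splice site, and the related LUC7-like proteins had a median of -0.11 over 4 genes, and of -0.06 to -0.05 under the other scalings. Luc7l3 read 11.11 and 10.86 (-0.25), with a second measured probe set at -0.10. Luc7l2 read 9.96 and 9.81 (-0.15), and its 6 measured probe sets, from -0.36 to -0.08, were all lower. Snrnp70, the U1-specific protein that SR proteins contact, read 10.78 and 10.71 (-0.07). Luc7l read 9.05 and 9.03 (-0.02), which turned to 0.04 to 0.07 under the other 3 scalings.

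The U2 and U5 snRNP and U2AF proteins, which recognize the branch point and 3′ splice site and form the catalytic core, were lower in all 6 genes, with a median of -0.16, and Sf3a1 alone turned sign, to 0.01 and 0.00 after quantile normalization and loess centring. Sf3b2 read 10.60 and 10.38 (-0.22) at its brightest probe set and ranged up to 0.03 over 6. U2af2, the large U2AF subunit that binds the polypyrimidine tract, read 10.02 and 9.81 (-0.21). Prpf8, the scaffold of the spliceosome's active site, read 10.42 and 10.21 (-0.21). Both have a single probe set, so there is no second measurement of either. U2af1, the small subunit that reads the 3′ splice site, read 11.30 and 11.19 (-0.11). Sf3b1, which clamps the branch point, read 11.17 and 11.07 (-0.10), and its dimmer probe sets included one at -0.42. Sf3a1 read 8.90 and 8.81 (-0.09), with a dimmer probe set at 6.29 and 6.54 (0.26).

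Among the RNA-binding motif proteins the representative probe sets hid a wide spread. Rbm39, an SR-like coactivator of splicing and transcription related to U2AF, read 9.83 and 9.59 (-0.24) at its brightest probe set. Its other 11 covered the largest range of any member. The lowest difference, at probe set 1438398_at, was 7.02 against 5.78 (-1.24, 2.36-fold lower), the only member probe set past 2-fold (1 of 134, against 0.266% of all measured probe sets), and it lay at -1.20 to -1.18 under the other scalings. Probe set 1439316_at read 6.36 and 5.47 (-0.89) and 1442744_at read 7.94 and 7.26 (-0.67). A further one, 1456386_at, was above the floor in the wildtype alone, at least 1.72-fold lower. In the opposite direction 1446147_at read 7.11 and 7.57 (0.45) and 1446148_x_at read 6.99 and 7.27 (0.28). Of the 11 Rbm39 probe sets measured on both arrays 8 were lower and 3 higher, with an SD of 0.50, so the gene has no single difference between the arrays. The sources used here do not say which transcript forms each probe set detects.

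**Figure D4:**
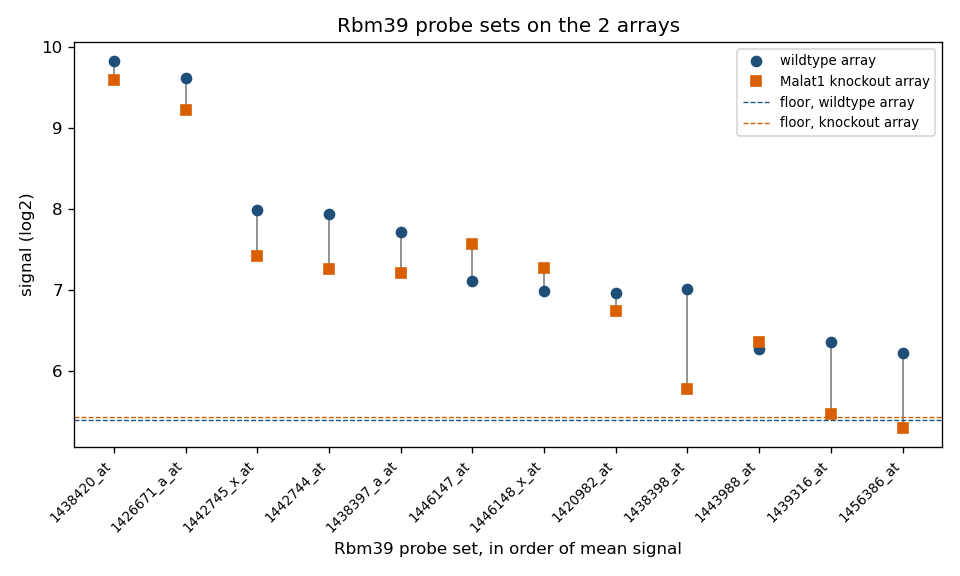
Log2 signal of the 12 Rbm39 probe sets on the wildtype (circles) and knockout (squares) array, ordered by mean signal, with dashed lines at each array's floor (5.39 and 5.44). Differences run from -1.24 to 0.45 among the 11 measured on both arrays.

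Rbm25, a partner of the U1 snRNP that affects 5′ splice site choice, read 10.14 and 10.12 (-0.03) at its brightest probe set, and this turned to 0.03 to 0.04 under the other scalings. Its other 4 measured probe sets were lower by more, from -0.46 to -0.15, so that the mean over the 5 was -0.25. Rbm5, a regulator of exon choice in apoptosis genes, read 10.39 and 10.33 (-0.06), and 2 dimmer probe sets differed by -0.22 and -0.21. The median of this subclass, -0.06 over 3 genes, is that of Rbm5. It became -0.25 with the mean over measured probe sets and turned to 0.00 with the median difference set to 0 and after quantile normalization.

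At their brightest probe sets the splicing kinases had a median of -0.05 over 7 genes, near that of all measured genes. It turned to 0.01 under each of the 3 other scalings. Clk2, a dual-specificity kinase that phosphorylates SR proteins in the nucleus, was the lowest at 8.94 and 8.67 (-0.27, 1.2-fold). Prpf4b, a kinase of the tri-snRNP, read 8.95 and 8.74 (-0.20), and its 5 measured probe sets ran from -0.58 to -0.17. Clk4 read 8.10 and 7.94 (-0.16), with its second probe set at -0.09. These 3 kept a negative difference under each scaling.

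At their brightest probe sets the other kinases showed little difference. Clk1 read 10.09 and 10.04 (-0.05) and Srpk1, a mainly cytoplasmic kinase that prepares SR proteins for nuclear import, 9.87 and 9.84 (-0.03), and both turned positive under the 3 other scalings. Clk3 read 8.82 and 8.85 (0.03). Srpk2, the relative of Srpk1, read 8.30 and 8.37 (0.07) at its brightest probe set, while its other 5 lay between -0.33 and -0.03. Clk3, Srpk2 and Srrm2 were the 3 members whose representative probe sets were higher on the knockout array.

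**Figure D5:**
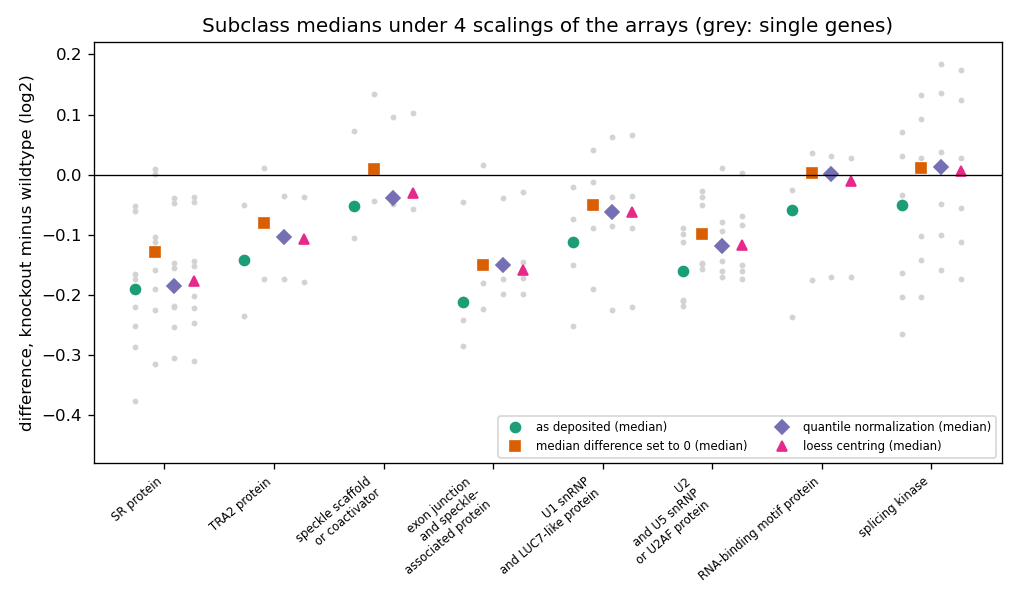
Median log2 difference, knockout minus wildtype, of the 8 subclasses with the values as deposited and under 3 other scalings of the arrays (coloured symbols), with single genes in grey. Each gene is given by its representative probe set. The SR proteins and the exon junction and speckle-associated proteins have medians between -0.21 and -0.13 under all 4 scalings. The splicing kinases lie at -0.05 as deposited and at 0.01 under the others. Over all measured probe sets as deposited, not drawn here, the medians were -0.17 for the SR proteins and -0.13 for the kinases.

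All measured probe sets of the list shared the direction and median of the representatives, but more of them passed 1.2-fold and 1.5-fold. Of 134 probe sets, 120 (89.6%) were lower on the knockout array, against 61.7% of 19187 measured probe sets, with a median of -0.16 against -0.06. Under the other scalings 97 to 103 were lower (72.4% to 76.9%, against 47.5% to 50.4% of all), with medians of -0.10 to -0.07. At least 1.2-fold lower were 36 (26.9%, against 17.6%) and at least 1.2-fold higher 3 (2.24%, against 8.13%). The excess lay in the probe sets other than the representatives, of which 32 of 95 (33.7%) were at least 1.2-fold lower, against 21.5% of such probe sets over all genes. At 1.5-fold the counts were 6 lower (4.48%, against 2.25%) and 0 higher (against 0.678%). The 6 belonged to Rbm39 (3), Tra2a, Acin1 and Srrm2. Without Rbm39 the probe sets at least 1.5-fold lower numbered 3 of 123 (2.44%), near the 2.25% of all measured probe sets. The excess at 1.5-fold thus lay in Rbm39. Lower by any amount were 112 of the 123 (91.1%).

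Agreement within a gene could be read for the 30 members with several measured probe sets. In 19 of them (63.3%) all measured probe sets were lower, against 41.8% of 4883 genes. The remaining 11, among them Srsf2, Srsf3, Srrm2, Thrap3, Sf3a1, Srpk2 and Rbm39, held both signs. The shares of 63.3% and 41.8% are for the deposited values alone. They depend on the number of measured probe sets per gene, which was not matched between the list and all genes. The pooled SD of the difference within a gene was 0.225 for the list and 0.164 without Rbm39, against 0.199 for all genes. These probe sets were hybridized with the same RNA and do not replicate the genotype.

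The rest of the splicing pathway was described through 4 further lists. Other snRNP and spliceosome proteins had 39 of 50 measured genes lower and 10 higher, while 59.8% of all measured genes were lower. Their median was -0.06, near that of all genes. With the median difference set to 0, 25 of the 50 were lower, near the 47.6% of measured genes. The helicase Dhx16, Cwc22 and Rbm22 differed most, by -0.34, -0.30 and -0.30. None of the 50 reached 1.5-fold. The exon junction complex and mRNA export list had 11 of 16 lower, against the same 59.8%. Its median of -0.04 turned to 0.02 with the median difference set to 0, and 7 were then lower, against 47.6% of measured genes. Its lowest values were those of the export helicase Ddx39b (-0.30), the junction component Casc3 (-0.25) and Chtop (-0.24).

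Nonsense-mediated decay factors, which degrade the unproductive forms of SR transcripts, had 6 of 7 measured genes lower (59.8% of all measured genes were) and a median of -0.15, which was -0.08, -0.06 and -0.06 with the median difference set to 0, after quantile normalization and after loess centring. Upf1, the central helicase of that pathway, read 7.73 and 7.14 (-0.58), just short of 1.5-fold, and Smg5 and Smg8 differed by -0.27 and -0.15. Other speckle kinases, cyclins and phosphatases had 13 of 18 lower, against the same 59.8%, and a median of -0.12, which was -0.05, -0.04 and -0.05 under those scalings. Ccnl2, a cyclin of speckle-associated CDK11, read 9.61 and 9.16 (-0.45), the phosphatase subunit Ppp1cb 11.55 and 11.26 (-0.28) and the kinase Hipk2 10.26 and 10.58 (0.31).

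Marker genes of cell types differed between the arrays as well, and sums below are over all matched genes of a list. For comparison, 6751 of the 11295 measured genes (59.8%) were lower and 4425 higher, with a median of -0.05. Fibroblast markers were lower in 10 of 14 genes, with a median of -0.26, and their summed linear signal was 105876 on the wildtype and 93931 on the knockout array. Macrophage and leukocyte markers were lower in 8 of 11 measured genes (median -0.37, sums 4417 and 3615), with Itgam below the floor on both arrays and Lyz2 the brightest at 11.20 and 10.74. Epithelial markers were higher in 6 of 8 (0.37, sums 1480 and 1794), with Cdh1 and Krt14 below the floor on both arrays and Krt19 the brightest. Krt5 and Krt8 were above the floor on the knockout array alone. Endothelial markers were higher in 5 of 5 (0.41, sums 1166 and 1668), with Pecam1, Cdh5, Tie1 and Tek below the floor on both arrays and Flt1 the brightest. Esam was above the floor on the wildtype array alone (5.41 and 5.37). Emcn, named after its values were seen, had the largest endothelial difference, at 7.53 and 9.00 (1.47). Neural and glial markers were higher in 4 of 6 (0.30, sums 2049 and 2441), with S100b and Sox2 below it, and skeletal muscle markers in 3 of 5 (0.22, sums 3268 and 3723), with Myod1, Myog, Tnnt3, Myh3 and Myf5 below it. Nes and Acta1 were the brightest of the last 2 lists. The part of these cell types in the differences of the splicing genes was not tested.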

How the data were processed

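The deposited table holds a value for every probe set on each array, taken here as log2 signals from their range, 2.09 to 14.71. The sources used here do not say how the authors summarized and normalized the log2 values. Per the labels' protocols, 100 ng of total RNA was labelled with biotin by a 3′ in vitro transcription kit. Gene symbols came from an annotation table of the platform, with 932 probe sets carrying several symbols and 9160 none, both left out of gene-level values. The brightest probe set by mean signal represented a gene. Being measured meant a signal at or above the array's median over probe sets other than the 64 controls. Of the 11295 measured genes, 119 had equal values on both arrays. The lists matched 50 of 54, 17 of 20, 7 of 10 and 19 of 19 pathway genes.

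With 1 array per genotype there was no test. Lists are described by counts and medians beside those of all measured genes. The members and lists were chosen with earlier results of these data known. Every member was named, with the 3 genes of largest absolute difference in each pathway list and the highest member of each marker list. Values were computed with Python 3.11.15, pandas 2.3.3 and statsmodels 0.14.6 (loess span 0.3) and tested on simulated data. Promoters came from RefSeq GRCm38.p6. The 10 alternatives were 3 scalings, 3 floors, an offset of 16 on linear values and 3 rules for probe sets.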

Additional observations from a re-analysis of the deposited data

How the results depend on the processing

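No paired analysis was possible because the labels give a single array for each genotype. The list's median stayed negative under all 10 alternatives, from -0.19 to -0.09, and 26 to 37 of 39 members were lower. The sign held in every alternative for 25 members and turned in at least 1 for 14, and 6 moved by 0.199 or more in at least 1. Members at least 1.2-fold lower numbered 1 with the median difference set to 0, 1 after quantile normalization, 1 after loess centring, 8 with the mean over measured probe sets and 8 with the median of all its probe sets, in place of 4. At least 1.2-fold higher was 1 member without _x_at and _s_at probe sets (Srsf2, 0.43), and past 1.5-fold was 1 member with the median over all probe sets (Srrm2, -0.59). The shares of all measured genes past these sizes are not given for those settings. The counts can therefore not be read as more or fewer than among all genes. Subclass medians turned with the median difference set to 0 for the speckle scaffolds (0.0097), the RNA-binding motif proteins (0.0029, and 0.0009 after quantile normalization) and the splicing kinases (0.0114, with 0.0136 after quantile normalization and 0.0060 after loess centring). With the median over all probe sets that of the RNA-binding motif proteins moved to -0.2967. With the median difference set to 0, 25 of 50 spliceosome genes and 7 of 16 exon junction and export genes were lower, against 47.6% of measured genes. The median of the exon junction and export genes turned to 0.0194 (0.0061 after loess centring). With the floor at the 75th percentile 3 nonsense-mediated decay genes were lower, since fewer were measured. Member probe sets at least 1.5-fold lower numbered 12 with no floor and 2 at the 75th percentile. The 12 take in probe sets below the main floor on at least 1 array. The share over all probe sets is not given at these floors, so neither count can be set against it. The median of all measured genes turned to 0.0113, 0.0231 and 0.0120 under the 3 scalings and to 0.0136 with no floor. The cause of these shifts was not tested. Probe set counts, the comparison with brighter genes, the size of 0.199 and the values without Rbm39 were added after seeing the data. Signals near the floor limit the dimmest Rbm39, Srrm2 and Tra2a probe sets. The 1.5-fold lower probe sets of Srrm2 (9.02 and 8.42) and Tra2a (7.86 and 7.10) were not near it.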
